A study of Mus musculus with 18 samples.

Results

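H19 and Igf2 are neighbouring imprinted genes on mouse chromosome 7, and their transcripts were described here isoform by isoform in differentiated muscle cells. Isoforms were taken as members when they lay on the minus strand of chromosome 7 with both ends inside a window around H19 (142128500 to 142133000) or around Igf2 (142203500 to 142222500), in the build GRCm39 that the deposited coordinates use. The decay table held 26 such isoforms of 6636, 10 of H19 and 16 of Igf2. The polysome table held 14 of 7123, 11 of H19 and 3 of Igf2.

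The study mapped the 5′ and 3′ end of the same RNA molecule with TIF-seq2, in order to relate transcript ends to translation and stability. Primary myoblasts from the gastrocnemius of wild-type female mice were fused into myotubes within 24 h by 1 µM of the ERK inhibitor SCH772984, which all 18 libraries share. For the decay assay, actinomycin D at 7.5 µg/ml stopped transcription. RNA was taken after 0, 3, 6 and 12 h from 3 mice, labelled A, B and C at every time (12 libraries). For polysome profiling, cells received 100 µg/ml cycloheximide for 5 min. RNA free of ribosomes, with 2 to 5 ribosomes (light) or with at least 6 (heavy) was taken from 2 mice. The mice are labelled 1 and 2 in every fraction (6 libraries).

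H19 is a spliced, polyadenylated long non-coding RNA transcribed from the maternal allele, and Igf2 encodes a secreted growth factor and is transcribed mainly from the paternal allele. An insulator between them, bound by CTCF when unmethylated, directs shared enhancers to H19 on the maternal allele and to Igf2 on the paternal one. H19 is the host of miR-675, and an intron of Igf2 is the host of miR-483. Both genes are strongly expressed in fetal muscle and rise when myoblasts differentiate, and the Igf2 protein acts through the receptor Igf1r as an autocrine signal in that step. The tables carry no allele information.

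Each table gave 1 coverage count per isoform over all libraries of its assay, with 0 columns for a single library, so no spread between mice and no test between fractions or times was available. Coverage summed to 3121491 in the decay table and 1601919 in the polysome table, and CPM below are coverage counts scaled to a table total of 1000000. Intervals are 95% intervals (Wilson for shares, exact Poisson for counts, exact binomial for ratios) that cover counting error only. Those on percentiles are Wilson intervals over the number of reference isoforms, and leave out the error of the isoform's own value. In such bulk material, fewer cells that express a gene and less RNA per cell cannot be told apart. Matching the deposited 5′ UTRs to RefSeq promoters named 30.2% of decay and 29.3% of polysome isoforms. Among the genes named this way were 9 of 13 myotube markers in the decay table and 10 of 13 in the polysome table, led by the actin gene Acta1, and 0 of 3 myoblast, 0 of 6 fibroblast, 0 of 3 endothelial and 0 of 3 macrophage markers in either table. Since most isoforms were not named, a marker without a match may still be present, and these counts do not measure the purity of the cells.

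Gene names are absent from the tables, so the identity of both loci was checked by position. The main 3′ ends of H19 and Igf2 lay 75237 nt apart in the deposited GRCm39 coordinates, against 75238 nt between the RefSeq ends of the 2 genes in GRCm38.p6. The longest H19 isoform spanned 2446 nt, against 2617 nt for the RefSeq gene.

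H19 was among the most covered transcripts of both assays. Its isoforms summed to a coverage of 19943 in the decay table, or 6389 CPM (6301 to 6478), and to 15077 in the polysome table, or 9412 CPM (9262 to 9563). The most covered H19 isoform ranked 79th of 6593 nuclear isoforms in the decay table and 97th of 7095 in the polysome table. When coverage was summed over all isoforms that share a 3′ end, the H19 3′ end ranked 15th of 4274 in the decay table and 6th of 3841 in the polysome table. In the deposited annotation every H19 isoform was classed as intergenic, with no UTR sequence. H19 alone made up 43.5% (43.1 to 44.0%) of the intergenic coverage in the decay table and 48.9% (48.3 to 49.4%) in the polysome table.

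H19 ended at 1 dominant position and began at many. All 10 decay isoforms ended at 142129269, as did 9 of the 11 polysome isoforms, which carried 99.7% of the polysome coverage of H19. The other 2 polysome isoforms ended at 142131013, 1744 nt upstream, with a coverage of 21 and 18, or 0.259% of the H19 coverage there. The 5′ ends were spread along the gene, with gaps between neighbours of 61 to 513 nt (median 192 nt) in the decay table and 78 to 433 nt (median 253 nt) in the polysome table.

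In the decay table, the isoform that began at 142131201 and spanned 1933 nt had a coverage of 6584, or 33.0% (32.4 to 33.7%) of H19. The longest isoform, which began at 142131714 and spanned 2446 nt, had a coverage of 2595, or 13.0%. The shortest of the 10, which began at 142129574 and spanned 306 nt, had a coverage of 2361. Most H19 coverage was thus linked to a 5′ end inside the gene: 87.0% (86.5 to 87.4%) of the coverage lay at 5′ ends downstream of the longest one. The remaining 7 isoforms spanned 367 to 1569 nt, 6 of them with a coverage of 1053 to 1991 and the 367-nt isoform with 77.

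In the polysome table coverage was divided more evenly. The isoforms that spanned 1815, 2108 and 2446 nt to the main 3′ end had a coverage of 2531, 2495 and 2277, and the 1815-nt isoform made up 16.8% of the H19 coverage. A further 5 isoforms, of 554, 699, 1007, 1136 and 1569 nt, had a coverage of 1178 to 1891, and the 2186-nt isoform had 20. Isoforms that ended at the main 3′ end and began downstream of the longest 5′ end held 84.6% (84.1 to 85.2%) of the H19 coverage.

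**Figure D1:**
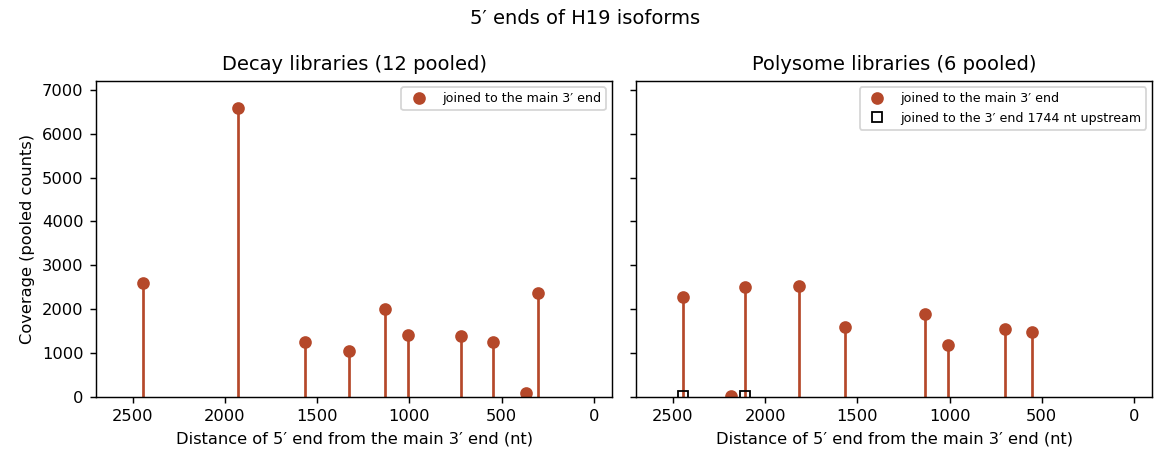
Coverage (pooled counts, y axis) of each H19 isoform by the distance of its 5′ end from the main H19 3′ end (nt, x axis), in the decay table (left) and the polysome table (right). The 1933-nt isoform stands highest in the decay table with a coverage of 6584, and the open squares are the 2 polysome isoforms that end 1744 nt upstream.

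Internal 5′ ends of this kind were also common at other well-covered 3′ ends. The longest isoform held 13.0% of H19 decay coverage, against a median of 29.5% over 358 nuclear 3′ ends with a coverage of 1000 or more and 2 or more isoforms, and H19 lay at the 45.8th percentile of them. In the polysome table the longest held 15.1% of H19, against a median of 8.03% over 261 such 3′ ends, at the 54.0th percentile. By its number of 5′ ends, the H19 3′ end ranked 41st in the decay table and 51st in the polysome table. No isoform of either table spanned fewer than 304 nt, so shorter H19 isoforms would not be listed.

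Of the H19 5′ ends, 4 were identical to the base in both tables, at 142130275, 142130404, 142130837 and 142131714. They carried 36.2% of the decay coverage and 46.1% of the polysome coverage of H19. The most covered decay 5′ end, at 142131201, was not among them: 6 of the 10 decay 5′ ends had a polysome 5′ end within 30 nt, and the others were 118 to 248 nt from the nearest one. The decay over polysome ratio of CPM was 0.679 (0.665 to 0.693) for the whole gene. For the shared isoforms it was 0.609 (0.564 to 0.659) at 1007 nt, 0.540 at 1136 nt, 0.398 at 1569 nt and 0.585 at 2446 nt. All 4 ratios lay below the median of 0.977 over the 2458 isoforms that the tables share, and inside their 5th to 95th percentile of 0.186 to 5.92.

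The deposited half-lives of H19 were above the middle of the table. Their unit and the fit behind them are not stated in the labels or the tables, so they are read as ranks. The value was 13.0 for the 1933-nt isoform, 14.5 for the full 2446-nt isoform and 12.7 for the 306-nt isoform. All 10 H19 isoforms, which ranged from 12.1 to 18.9, lay above the median of 10.8 over the 5247 nuclear isoforms that had a half-life above 0 and a coverage of 30 or more. Their coverage-weighted mean of 13.4 was at the 77.3rd percentile (76.2 to 78.5). The 83 other intergenic isoforms had a median of 11.2, with a quartile range of 9.28 to 14.2.

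Half-lives were higher among well-covered isoforms, which bears on a gene as well covered as H19. Decay coverage pools all times after actinomycin D, so it may itself depend on half-life. The part of this in the link was not tested. Among the 608 isoforms with a coverage of at least 1000 the median was 12.3, and 8 of the 9 H19 isoforms in that class were above it. The H19 mean then lay at the 76.2nd percentile (72.6 to 79.4). The highest H19 value, 18.9, belonged to the 367-nt isoform with a coverage of 77, and the other 9 ranged from 12.1 to 16.0. Isoforms with different 5′ ends thus had similar values: the SD of log2 half-life over the 10 was 0.191, against a median of 0.437 over 77 nuclear 3′ ends with at least 5 isoforms. With isoforms of a coverage of at least 1000 alone, the H19 SD was 0.121, the lowest of 3 such 3′ ends whose median was 0.152.

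**Figure D2:**
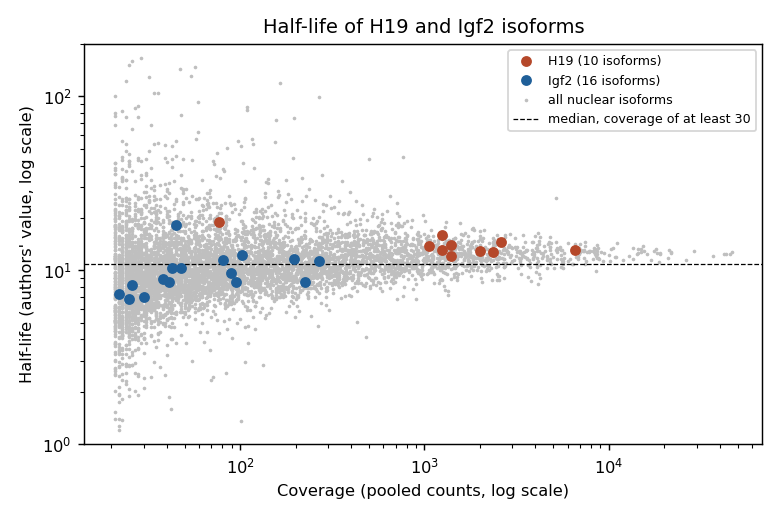
Half-life (the authors' value, log scale) of each nuclear isoform by its coverage in the decay table (pooled counts, log scale), with the 10 H19 and 16 Igf2 isoforms in colour and a dashed line at the median of 10.8. All H19 points lie above the line and 11 of the 16 Igf2 points below it; 19 isoforms outside the axis range are not drawn.

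No H19 isoform had a TE, the deposited value of translation efficiency. TE was absent from all 155 intergenic isoforms of the polysome table, so this follows their class and is no measurement of H19 on ribosomes. H19 had coverage in the polysome libraries, but the counts of free, light and heavy fractions were not separable.

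In RefSeq, Mir675 lies inside H19 at chr7:142577064-142577147 (GRCm38.p6, minus strand), 999 nt from the H19 start and 1534 nt from its end. The mature miRNAs from both arms of the H19 hairpin are shown, since they are the small RNA products of this transcript. Capitals mark the seed, bases 2 to 8, and the sequences are from RefSeq (GRCm38.p6), written 5′ to 3′.
mmu-miR-675-5p: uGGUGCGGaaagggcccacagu
mmu-miR-675-3p: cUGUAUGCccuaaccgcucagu
The arms have different seeds. TIF-seq2 joins the ends of long polyadenylated RNA, so the mature miRNAs were not measured.

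Igf2 was far less covered than H19 and stood out mainly in the decay libraries. Its isoforms summed to 1373 in the decay table, or 440 CPM (417 to 464), and to 44 in the polysome table, or 27.5 CPM (20.0 to 36.9). The decay over polysome ratio was 16.0 (11.9 to 22.1), but it sets 16 decay isoforms against 3 polysome isoforms. The 13 decay isoforms that began 3′ of the stop codon, with 1082 counts, had no polysome counterpart. The lowest coverage listed in the polysome table was 11, a limit that the interval leaves out. The 3 isoforms found in both tables had 291 decay and 44 polysome counts. For the full-length Igf2 isoform the ratio was 6.05 (3.78 to 10.2), with a coverage of 224 (71.8 CPM) in the decay table and 19 (11.9 CPM) in the polysome table. That ratio lay at the 95.1st percentile of the 2458 shared isoforms, against the 17.2nd to 29.8th for the 4 shared H19 isoforms. The tables differ in drug treatment and in fractionation, and the part of each in these ratios was not tested.

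A single Igf2 promoter was seen. All 3 Igf2 isoforms that began upstream of the coding region started at 142211216 in both tables, 13 nt from an annotated start. RefSeq lists 4 Igf2 promoters. The deposited 5′ UTR matched only the most downstream one, over 33 bases to the end of its promoter sequence, beginning 17 nt downstream of the RefSeq start. The 3 others lie 1308, 3775 and 9320 nt upstream of it. The 30 bases just upstream of the mapped 5′ end are shown because they precede the only Igf2 5′ end mapped upstream of the coding region, from the RefSeq promoter table (chr7:142657480-142657509, GRCm38.p6, minus strand). Capitals mark the A/T-rich hexamer ATAAAA.
Igf2 promoter upstream of the mapped 5′ end: cATAAAAagcggaggcactgaccagttcgc
The hexamer begins 29 nt before the mapped 5′ end. On either strand, ATAAAA is found in 18.5% of the 32851 RefSeq promoter sequences of 300 nt, and in 4.68% within the last 60 nt before the start. The Igf2 promoter sequence also held GGGCGG 2 times (in 35.7% of promoters) and CCAAT 1 time (37.4%), and TATAAA 0 times (13.6%). These matches describe letters in a window and not binding.

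The 5′ UTR made from this promoter was 111 nt long, against a median of 96 nt in the decay table. Its GC content was 49.5%, lower than in most isoforms (median 61.8%, 8.24th percentile). It held 0 upstream AUGs, as did 64.4% of isoforms. The 3′ UTR of the full-length isoform was 1875 nt long (median 309 nt, 98.0th percentile), with a GC content of 53.4% (median 50.5%) and 1 AUUUA pentamer, a motif that 67.9% of isoforms lack. On the genome the stop codon and the main 3′ end are 3047 nt apart, 1172 nt more than the deposited 3′ UTR.

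From that promoter, Igf2 transcripts reached 3 different 3′ ends. The distal one at 142204506 gave the 1875-nt 3′ UTR, the one at 142207263 a 290-nt 3′ UTR and classed as a new polyadenylation site, and the one at 142207530 a 23-nt 3′ UTR. The 1875-nt and 290-nt UTRs share their first 255 nt and then differ. The last bases before each 3′ end are shown because these 3 ends separate the Igf2 isoforms, with capitals on the polyadenylation hexamer where there was one. They are taken from the deposited 3′ UTRs, at chr7:142204506-142204535, chr7:142207263-142207292 and chr7:142207530-142207552 (GRCm39, minus strand), and the last is the whole 3′ UTR.
Igf2 3′ end, 1875-nt 3′ UTR: tcgcaaacctAATAAAgcatttaaaatact
Igf2 3′ end, 290-nt 3′ UTR: atattcacATTAAAaaaaactttaaaaact
Igf2 3′ end, 23-nt 3′ UTR: atcaaattatgtggtaattctgc
The distal end had the canonical AATAAA 20 nt before it, as 62.1% of 4040 distinct 3′ UTRs have somewhere in their last 40 nt. The middle end had the variant ATTAAA 22 nt before it (17.2% of 3′ UTRs). The 23-nt 3′ UTR held neither, but bases upstream of it were not searched, against 40 nt searched at the other ends.

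In the decay table the 3 full-promoter isoforms had a coverage of 224 with the 1875-nt, 22 with the 290-nt and 45 with the 23-nt 3′ UTR. In the polysome table the same isoforms had 19, 13 and 12. The long isoform was the most covered of the 3 in both tables. The decay over polysome ratio of CPM of the 290-nt isoform was 0.868 (0.419 to 1.88) and that of the 23-nt isoform 1.92 (1.00 to 4.00), both below the 6.05 (3.78 to 10.2) of the long isoform. They lay at the 43.6th and 76.1st percentiles of the shared isoforms. The interval of the 290-nt isoform did not overlap that of the long one, and the interval of the 23-nt isoform did. The 22 decay counts and the 12 to 19 polysome counts lie near the lowest listed counts of 21 and 11. The intervals do not allow for that limit, so the difference between these isoforms was not tested.

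Most Igf2 coverage in the decay table came from isoforms that began 3′ of the stop codon. There were 13 of them, all ending at the distal 3′ end, and they carried 1082 of 1373 counts, or 78.8% (76.6 to 80.9%). Of these, 12 began inside the deposited 1875-nt 3′ UTR, with 1034 counts or 75.3% (73.0 to 77.5%). The 3 isoforms from the promoter carried 291, or 21.2% (19.1 to 23.4%). At the distal 3′ end alone the full-length isoform held 17.2% (15.2 to 19.3%) of a coverage of 1306.

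The most covered of these internal isoforms began at 142204984, spanned 479 nt and had a coverage of 267, above the 224 of the full-length mRNA. The next began at 142205678 (1173 nt, coverage 197) and at 142205357 (852 nt, coverage 102). A further 3, of 1379, 1078 and 1278 nt, had a coverage of 95, 89 and 81, and the other 7 had 25 to 48. All but 1 of the 13 lay within 1498 nt of the 3′ end. The exception, at 142207272, spanned 2767 nt and began 9 nt upstream of the middle 3′ end at 142207263. That position is base 281 of the 290-nt 3′ UTR and lies in the stretch that the deposited 1875-nt 3′ UTR leaves out.

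The bases around the 3 most covered internal 5′ ends are shown because most Igf2 coverage in the table began at such positions. Each line holds 15 bases before and, in capitals, the first 15 bases of the isoform, from the deposited 3′ UTR at chr7:142204970-142204999, chr7:142205664-142205693 and chr7:142205343-142205372 (GRCm39, minus strand).
Igf2 internal 5′ end, span 479 nt: actcaaagagtaaatTGTTATAATTGGAGA
Igf2 internal 5′ end, span 1173 nt: gttgggagtggagtcTCTGTGGGGTGCTGG
Igf2 internal 5′ end, span 852 nt: cttgcccactcgtggGGTGAGGCCCGGAGT
The first base was A in 2, C in 3, G in 2 and T in 5 of the 12 internal 5′ ends that the deposited 3′ UTR covers, and GGG stood directly before 0 of the 12. No base was thus shared by these starts.

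**Figure D3:**
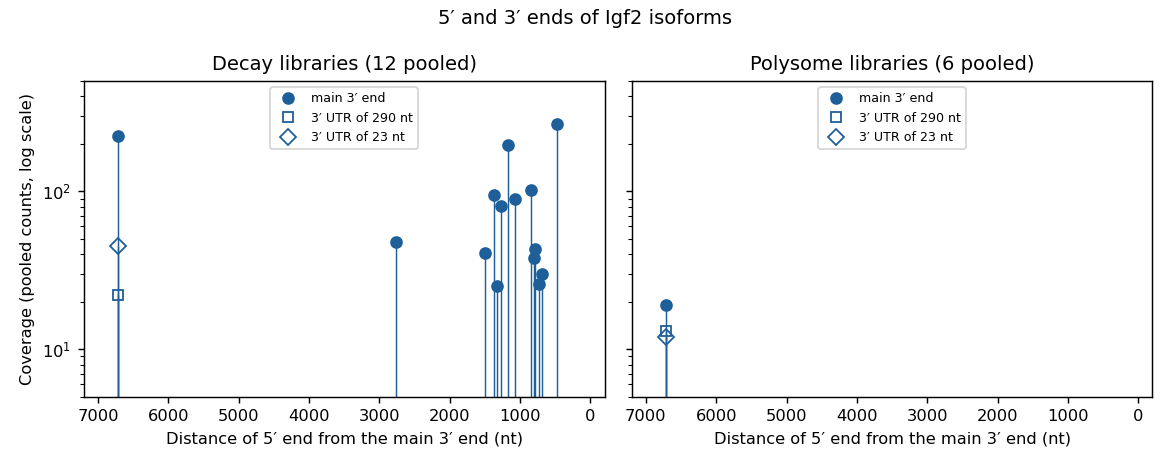
Coverage (pooled counts, log scale, y axis) of each Igf2 isoform by the distance of its 5′ end from the main Igf2 3′ end (nt, x axis), in the decay table (left) and the polysome table (right). The group of points from 479 to 2767 nt, with a coverage of 25 to 267, is the 13 isoforms that start 3′ of the stop codon, 12 of them within the deposited 3′ UTR, and the polysome table shows only the 3 isoforms from the promoter.

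Isoforms that lie wholly inside their own deposited 3′ UTR made up a small share of the tables. The decay table listed 55 isoforms no longer than their deposited 3′ UTR, or 0.868% of 6333, at 28 different 3′ ends. Igf2 supplied 12 of the 55 (21.8%) and 1034 of their summed coverage of 3143 (32.9%). The next 3′ end had 6 such isoforms with a coverage of 392. Among polysome isoforms, 107 of 6698 (1.60%) were of this kind and 0 were of Igf2; the lowest coverage listed there was 11. Since no listed isoform spanned under 304 nt, only the 3200 decay isoforms with a 3′ UTR at least that long could be of this kind, and the 3′ UTR of Igf2 is among the longest. Among decay isoforms with a 3′ UTR of 1500 to 2500 nt, 12 of 14 Igf2 isoforms were of this kind, against 10 of 176 others (5.68%). In the polysome table, 30 of 287 isoforms of other genes in this length class were of this kind (10.5%). One 3′ end there had 13 of them, with a coverage of 381. Over 3′ UTRs of any length, such isoforms reached a coverage of 4818 at 1 polysome 3′ end.

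The half-life of full-length Igf2 was in the lower part of the table. It was 8.57, at the 20.9th percentile (19.8 to 22.0) of nuclear isoforms. The percentile depended on the coverage of the isoforms it was set against, and was 10.03 with a coverage of at least 100 and 1.32 with at least 1000. No Igf2 isoform reached a coverage of 1000, and coverage pooled over all decay times may itself depend on half-life. The isoform with the 290-nt 3′ UTR had 7.27 (9.17th percentile) at a coverage of 22, and the isoform with the 23-nt 3′ UTR had 18.1 (93.2nd percentile) at a coverage of 45. Relative to the long isoform these are log2 differences of -0.24 and 1.08. Near-identical isoforms, with the same 5′ end and 3′ ends under 50 nt apart, differed with an SD of 0.861 on the log2 scale over 90 pairs, and of 1.01 over the 61 pairs with a coverage of 30 to 99. The median size of such a difference was 0.326 and its 90th percentile 0.977, or 1.11 at a coverage of 30 to 99. The 290-nt difference was thus smaller than the median of such pairs, but the pairs begin at a coverage of 30 and that isoform had 22. The 23-nt difference was near the upper end of such pairs.

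The 13 isoforms that began 3′ of the stop codon had half-lives of 6.85 to 12.2, with a median of 9.70 and a coverage-weighted mean of 10.5, and 9 of the 13 were above the full-length isoform. For the 12 inside the deposited 3′ UTR the median was 9.28, and 8 were above it. The 6 internal isoforms with a coverage of at least 80 had 8.55 to 12.2, and 5 of these were above it. The 479-nt isoform had 11.2, the 1173-nt isoform 11.6 and the 852-nt isoform 12.2. Over all 16 Igf2 isoforms 11 were below the table's median of 10.8, and the coverage-weighted mean of 10.4 lay at the 44.0th percentile, whereas that of H19 lay at the 77.3rd. Set against isoforms with a coverage of at least 1000, which no Igf2 isoform reached, the Igf2 mean lay at the 12.0th percentile (9.66 to 14.8). The unweighted Igf2 median of 9.28 lay at the 29.4th among those with at least 30.

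TE was given for all 3 Igf2 isoforms of the polysome table, each at a coverage under 30. The full-length isoform had 0.000673, close to the median of 0.000742 over 3517 nuclear isoforms (42.9th percentile, 41.3 to 44.5). That interval leaves out the error of a TE that rests on 19 counts. The 290-nt 3′ UTR isoform had 0.00163 (93.3rd percentile) at a coverage of 13. The 23-nt 3′ UTR isoform had 0.0511 at a coverage of 12, above all 3517, and the second highest of the 6206 TE values above 0. The log2 differences from the long isoform were 1.27 and 6.25. Over 36 near-identical pairs the SD of the log2 difference in TE was 0.394. These pairs do not reach down to the coverage of the Igf2 isoforms: among the 1468 isoforms with a coverage of 12 to 19, TE ran from 0.000217 at the 5th to 0.00257 at the 95th percentile and reached 0.480. The order of the 3 values, higher with a shorter 3′ UTR, therefore rests on 44 counts.

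**Figure D4:**
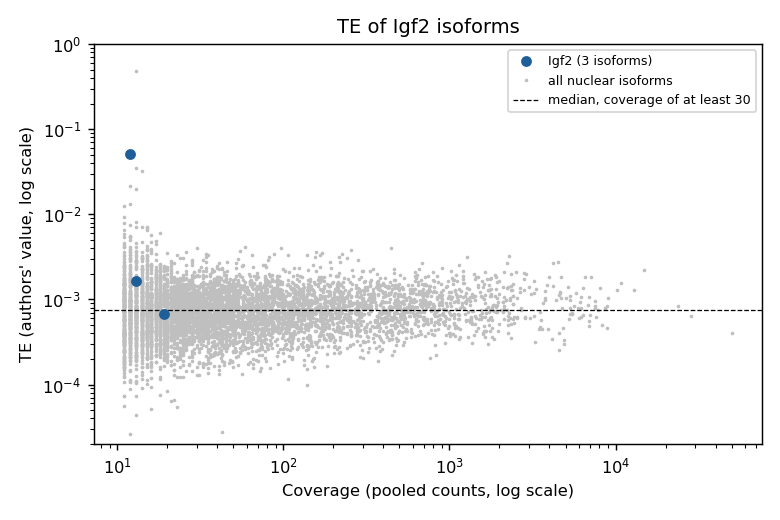
TE (the authors' value, log scale) of each nuclear isoform by its coverage in the polysome table (pooled counts, log scale), with the 3 Igf2 isoforms in colour and a dashed line at the median of 0.000742. The Igf2 points, at a coverage of 12 to 19, run from 0.000673 to 0.0511 at the thin, widely scattered end of the plot, and 2 isoforms outside the axis range are not drawn.

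The Igf2 3′ UTR was searched for matches to the miRNAs of both loci. Mir483 lies in Igf2 at chr7:142654924-142654996 (GRCm38.p6, minus strand). Matches to the seed were counted for both arms of miR-675 and miR-483 and for let-7a, miR-125b and the muscle miRNA miR-206. One match was found, of miR-483-3p, the product of the Igf2 gene itself. The miRNA, from RefSeq (GRCm38.p6) with its seed in capitals, and the site within 30 bases of the 3′ UTR at chr7:142205557-142205586 (GRCm39, minus strand) with the match in capitals, are shown because host gene and match are the same transcript.
mmu-miR-483-3p: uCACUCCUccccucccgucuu
Igf2 3′ UTR match: cagaagttctgAGGAGTGgagggggcgtgg
The match AGGAGTG begins at base 806 of the deposited 3′ UTR, 1070 nt before the distal 3′ end. It is present in the 1875-nt 3′ UTR and in neither shorter one. Of 151 3′ UTRs of 1500 to 2500 nt, 23.2% hold the same letters, so such a match is common at this length. The seed matches of miR-675-5p, miR-675-3p and miR-483-5p were found 0 times (in 2.65%, 5.30% and 3.97% of these 3′ UTRs), as were those of let-7a (12.6%), miR-125b (25.2%) and miR-206 (6.62%).

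Other imprinted genes and members of the IGF pathway were sought through the promoter match, which named a minority of isoforms, so a gene not matched may still be in the tables. Of 32 imprinted genes, 2 were matched in the decay table, both with a low half-life for their most covered isoform. Mest, a paternally expressed hydrolase-like gene, had a coverage of 124 over 2 isoforms. The more covered of them, with 84, had a half-life of 7.81 (13.2nd percentile). Grb10, which encodes an adaptor that restrains insulin and IGF receptor signalling, had a coverage of 26 and a half-life of 7.93 (14.6th percentile). Full-length Igf2, at the 20.9th percentile, lay near them, and H19 did not. Among polysome isoforms, 0 of the 32 were matched.

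Of 20 genes of the IGF pathway, 4 were matched in the decay table and 1 in the polysome table. Igfbp2, a secreted binding protein that sequesters IGFs, had a coverage of 406 and a half-life of 14.4 (82.8th percentile) in the decay table, and a coverage of 796 with a TE of 0.000888 (62.8th percentile) in the polysome table. Igfbp5, the binding protein induced in differentiating myoblasts, had a coverage of 27 and a half-life of 19.7 (94.9th percentile). Akt2, a kinase downstream of the IGF receptor, had 96 and 10.9 (50.6th percentile), and Htra1, a secreted protease that cleaves IGF binding proteins, had a coverage of 21 and no half-life. The full-length isoform of the ligand gene Igf2, at 8.57, was below the 3 pathway genes matched with a value, and its isoform with the 23-nt 3′ UTR, at 18.1, was above Akt2 and Igfbp2.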

How the data were processed

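TIF-seq2 libraries of myotubes were processed by the authors with STAR 2.5.3a on GRCm39, and with UMI-tools 0.5.4, cutadapt 1.16 and bcl2fastq 2.20.0, per the submitters' processing notes. The authors deposited 1 table per assay, in which each isoform has a coverage count pooled over libraries and a TE or half-life score, whose formula and unit neither labels nor headers state. Lowest listed counts were 21 (decay) and 11 (polysome). Depth per library is unknown, so the planned count test between fractions and times was not run. Whether coverage counts molecules or reads is not stated either.

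Ranks, shares and percentiles were computed with Python 3.11.15, pandas 2.3.3 and scipy 1.17.1. Percentiles are the percentage of nuclear isoforms with a lower value, among those with a score above 0 and a coverage of at least 30. The percentile, end-grouping and interval calculations were tested on constructed values and simulated draws. Genes were named by the first 20 bases of the deposited 5′ UTR in RefSeq promoters (GRCm38.p6); no coordinates were converted between builds. Every H19 and Igf2 isoform was eligible to be named, and other genes where a list gene was matched. The members and lists were chosen with earlier results of these data known. Alternatives were other reference sets, coverage minimums and grouping distances for ends.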

Additional observations from a re-analysis of the deposited data

How the results depend on the processing

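Of the 64 alternatives, 36 stayed within the counting interval or spread and 28 moved. The main results were the H19 coverage ranks and half-life percentile, and the half-life and TE percentiles of full-length Igf2. Most alternatives on these moved, as did 15 of the 46 on all other results. With 5′ ends grouped under 200 nt apart, the most covered Igf2 decay group was internal, at 38.5%, against 21.2% for the promoter. The leading H19 5′ end in the polysome table also changed, from 16.8% to a group with 20.4%. Among annotated isoforms alone, the most covered H19 isoform stood in the top 1.75% (decay) and 2.04% (polysome), against 1.20% and 1.37% among all nuclear isoforms. Summed per 3′ end, it stood in the top 0.351% and 0.156%. The half-life percentile of H19 was 77.3, and became 74.9 with a coverage of at least 100, 79.1 among annotated isoforms and 76.2 with a coverage of at least 1000. That of full-length Igf2 was 20.9, and became 25.6 with no minimum, 10.03 with at least 100 and 1.32 with at least 1000. Its TE percentile was 42.9, and became 44.6 with no minimum, 38.3 with at least 100 and 41.0 among annotated isoforms. The minimum of 1000, which no Igf2 isoform reached, and that of 80 for Igf2 were chosen after seeing the data. No paired analysis was possible because the tables hold no values per library, and no replicate could be left out for the same reason. The Igf2 values in the polysome table rest on 12 to 19 counts each.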
